A study of Mus musculus with 24 samples.

Results

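The genes described here are 10 components of the insulin receptor signalling chain, followed in mouse liver across 8 groups that cross 4 genotypes with 2 diets. They are the receptor gene Insr, the adaptor genes Irs1 and Irs2, the phosphoinositide 3-kinase regulatory subunit gene Pik3r1, the kinase genes Akt1 and Akt2, the transcription factor genes Foxo1 and Foxo3, the tyrosine phosphatase gene Ptpn1 and the insulin-degrading enzyme gene Ide. Members were found by name among 31027 loci of an expression table in FPKM (fragments relative to the length of the transcript and to all mapped fragments). Each of the 10 had 1 locus that carried no other gene name, each averaged at least 1 FPKM over the 24 libraries and so passed the filter on low values, and none was listed at 0 in any library.

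Insulin bound to its receptor starts the receptor's tyrosine kinase, which phosphorylates the insulin receptor substrates, and these recruit phosphoinositide 3-kinase. The lipid it makes brings AKT kinases to the membrane, where they are switched on and phosphorylate FOXO transcription factors, which then leave the nucleus. In liver this chain lowers glucose output and raises glycogen and fat synthesis, and hepatocytes also take up and degrade much of the insulin that reaches them. JNK kinases, activated by stress and by fatty acids, can phosphorylate insulin receptor substrates on serine.

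All mice were C57BL/6J and carried AlbCre, a Cre recombinase driven by the albumin promoter, which acts in hepatocytes, so that the other cells of the liver keep the targeted genes. Jnk1Jnk2 livers came from AlbCre+ mice with floxed alleles of both Jnk1 (gene symbol Mapk8) and Jnk2 (Mapk9), Jnk1 livers from AlbCre+ Jnk1flox/flox mice and Jnk2 livers from AlbCre+ Jnk2flox/flox mice. The labels call these genotypes knock down, and they call AlbCre+ mice without a floxed allele wild type, which served as control. Mice ate a high fat diet or chow for 16 weeks, and each of the 8 groups had 3 libraries of total liver RNA. The labels do not say whether the 3 libraries of a group came from separate mice, and p-values then reflect only how these libraries vary, which may in part be technical. The ages of the mice are not given.

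Mapk8 had 0.845 to 2.47 FPKM in the 12 libraries with floxed Jnk1 alleles and 3.38 to 5.77 FPKM in the other 12, and Mapk9 had 4.33 to 7.79 FPKM in the 12 libraries with floxed Jnk2 alleles and 9.01 to 11.95 FPKM in the other 12, so no library went against its label. FPKM summed to 849038, 873399 and 852069 in the high-fat Jnk1Jnk2 libraries and to 634849 to 734352 in the other 21. Among hepatocyte markers Apoa1, an apolipoprotein gene, had at least 5260 FPKM and Hnf4a, a liver transcription factor gene, at least 61.9 FPKM in every library. The table lists Alb, the albumin gene, at 0 in 4 libraries and the locus of Serpina1a, a protease inhibitor gene, at 0 in 7. The high-fat Jnk1Jnk2 libraries stood apart from the rest by transcript length as well as by summed FPKM. The Spearman correlation between a locus's deviation from its mean and its transcript length, taken across loci within a library, was -0.62 to -0.56 in those 3 libraries and -0.26 to 0.40 in the other 21. Transcripts of these genes are mostly long, from 2690 bases for Akt1 to 9355 bases for Insr, against a median of 3215 bases over tested loci, so each comparison is given both as deposited and with the length trend removed from every library.

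Promoters of the adaptor genes are shown because Irs1 and Irs2 hold the core of the insulin response element, a sequence that FOXO proteins bind, close to their start sites, and because both had their lowest level in the same group. RefSeq promoters of build GRCm38.p6, each 250 bases before to 50 bases after a start site, were at hand for 9 of the 10 genes, with 14 start sites in all. Written 5′ to 3′ on the gene's strand, with the core in capitals (TGTTTTG, the other strand of CAAAACA), they are Irs1 at chr1:82291390-82291689, minus strand, and Irs2 at chr8:11008880-11009179, minus strand.
Irs1: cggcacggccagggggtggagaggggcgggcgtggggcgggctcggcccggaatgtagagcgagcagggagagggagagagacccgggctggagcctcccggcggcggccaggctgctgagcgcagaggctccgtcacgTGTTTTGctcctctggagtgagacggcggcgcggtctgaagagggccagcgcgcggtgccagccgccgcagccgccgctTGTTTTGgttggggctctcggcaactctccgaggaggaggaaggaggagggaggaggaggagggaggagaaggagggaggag
Irs2: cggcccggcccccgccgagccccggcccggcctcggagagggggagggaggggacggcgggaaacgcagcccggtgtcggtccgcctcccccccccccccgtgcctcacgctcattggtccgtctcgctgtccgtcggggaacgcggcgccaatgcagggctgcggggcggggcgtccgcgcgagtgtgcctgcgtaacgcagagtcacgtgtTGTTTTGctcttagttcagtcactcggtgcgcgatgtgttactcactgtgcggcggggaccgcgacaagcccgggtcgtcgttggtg
The core, searched on both strands, begins 111 and 32 bases before the start site of Irs1, 37 bases before that of Irs2 and 102 bases before that of Ide, and was found in these 3 of the 9 genes. It stood in 6.28% of all 32851 promoters of that length. The RefSeq start sites need not be those of the measured loci. The Irs2 promoter lies outside the measured locus, which spans 10986964 to 11008430. The Ide promoter, at 37334495-37334794, lies inside the measured locus, which spans 37268741 to 37337852. A forkhead core, GTAAACA on either strand, was found in 1 of the 9 genes, at 1 start site of Akt1, and in 3.65% of all promoters. The AP-1 motif TGANTCA, bound by JUN, the substrate after which JNK is named, was in none of the 9 and in 7.81% of all promoters. None of these motifs overlapped another. They were chosen after expression values had been seen, and a match is a description of the sequence, not of binding.

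FPKM are scaled to transcript length, and levels are set side by side on that basis. Libraries still differed in their trend with length, so the order of genes of unlike length is approximate. Averaged over 24 libraries, Akt2 was the highest of the 10 at 25.3 FPKM, followed by Akt1 at 19.4, Ide at 17.8, Insr at 16.3 and Pik3r1 at 12.6 FPKM. The FOXO genes averaged 8.37 FPKM for Foxo1 and 6.87 for Foxo3, and Ptpn1 averaged 6.30. The adaptors were lowest, with 2.41 FPKM for Irs2 and 1.94 for Irs1. For 8 of the 10 genes, all but Akt1 and Akt2, the lowest of the 8 group means was that of high-fat Jnk1Jnk2 livers, and for 6 of them all 3 of those libraries lay below each of the other 21. Of the 10562 loci averaging at least 1 FPKM, 36.6% had their lowest mean in that group, and for 17% all 3 libraries lay below the other 21. For 6 genes, Insr, Pik3r1, Foxo1, Foxo3, Ptpn1 and Ide, the highest group mean was that of high-fat Jnk1 livers, as it was for 15.5% of those loci. Steps between neighbouring groups in these orders were mostly within the spread, since the ranges of neighbours were apart in 11 of 70 steps.

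**Figure D1:**
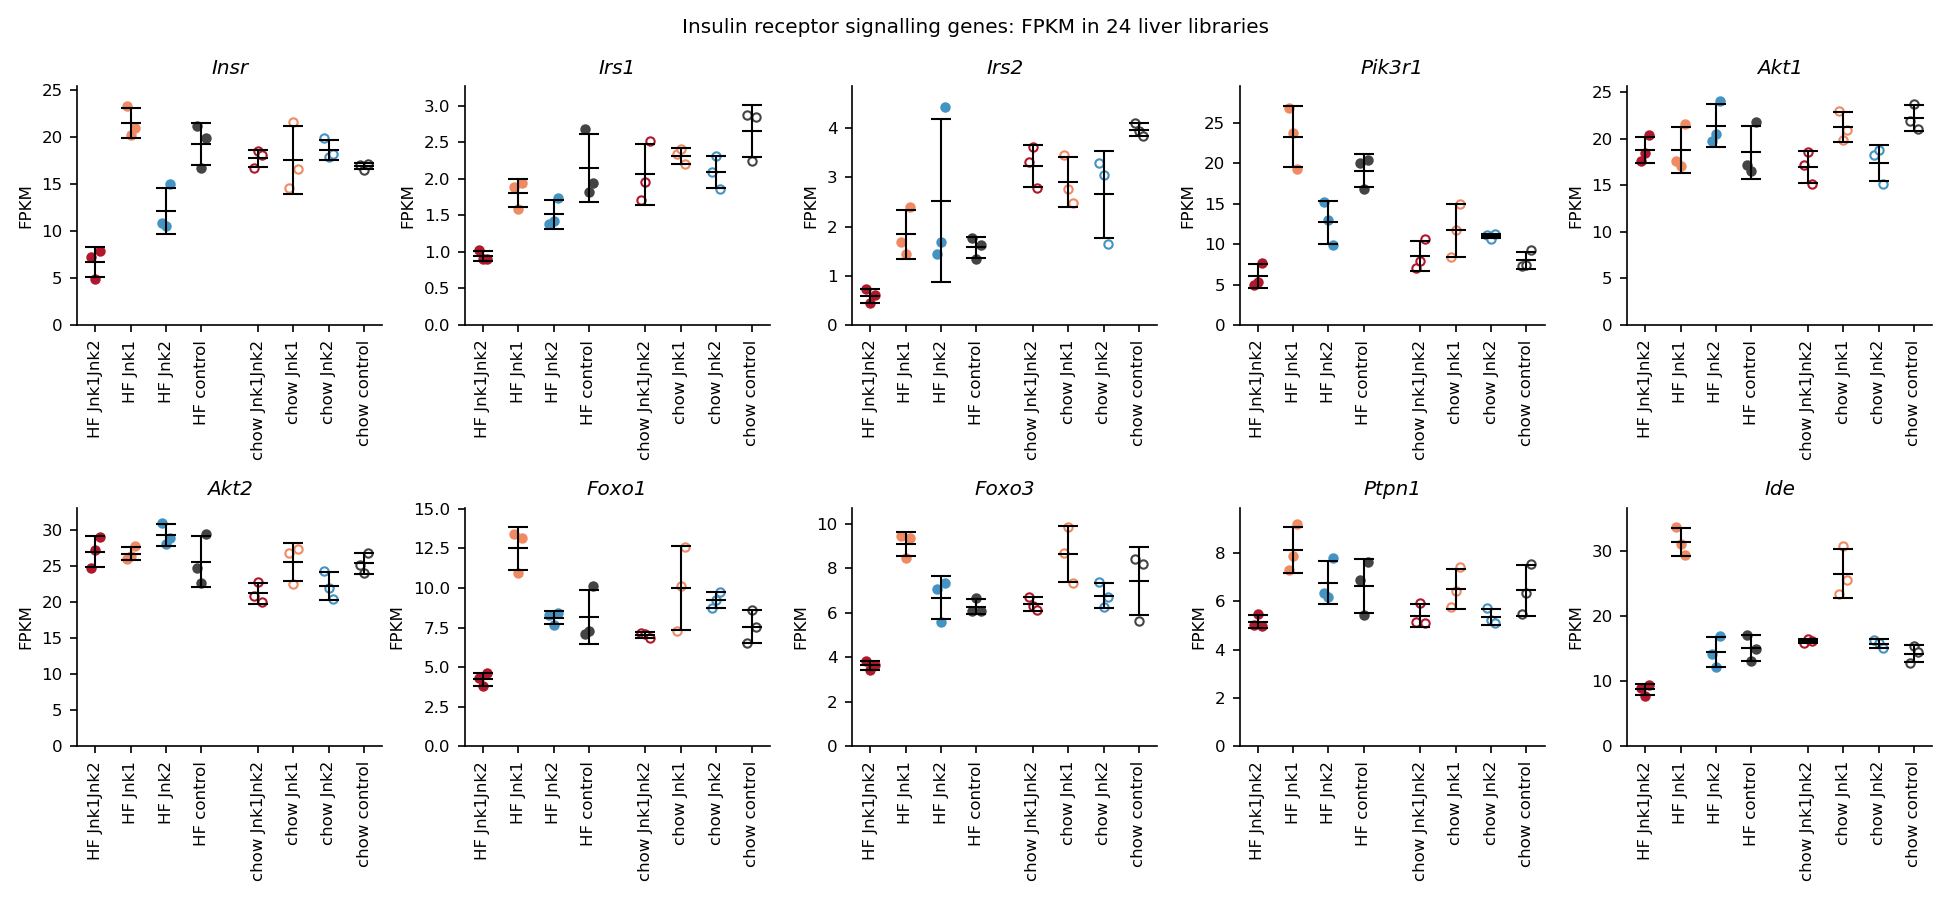
FPKM of each gene in each of 24 libraries (points, filled for high fat, abbreviated HF, and open for chow), with the mean and SD of 3 libraries per group as bars. High-fat Jnk1Jnk2 livers have the lowest mean for 8 of the 10 genes, and Ide is highest in Jnk1 livers on both diets.

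Ide was higher in Jnk1 livers on both diets, and it was the only one of the 10 genes that passed the test in Jnk1 livers as deposited. It encodes the zinc metalloprotease that cleaves insulin and lies at chr19:37268741-37337852 on the minus strand (mm10, protein coding, 4962 bases for the longest transcript). On high fat it had 33.7, 31.0 and 29.5 FPKM in Jnk1 livers, against 17.1, 13.1 and 15.0 FPKM in control livers. On chow it had 23.4, 30.8 and 25.6 FPKM in Jnk1 livers, against 12.8, 15.4 and 14.6 FPKM in control livers. Every Jnk1 library was above every control library on either diet. The groups did not overlap for 18.7% of all loci on high fat and 19.4% on chow. The ratio of means was 2.08 on high fat and 1.86 on chow. On the log2(FPKM + 1) scale Ide rose by 1.02 ± 0.12 (SE) on high fat (adjusted p = 9.32e-05, limma over all tested loci) and by 0.85 ± 0.12 on chow (adjusted p = 0.000475), and with the length trend removed by 0.98 and 0.86. At this threshold 0.123% of 10562 tested loci were called higher in Jnk1 livers on high fat and 0.985% on chow, where called means an adjusted p under 0.05. The interaction of diet with Jnk1 was 0.17 ± 0.16 for Ide (adjusted p = 0.951), which did not pass the test. When only the groups compared were fitted, so that the spread came from 6 libraries, the calls were lost with the same differences (adjusted p = 0.0679 on high fat and 0.0581 on chow).

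The FOXO genes stood next highest in high-fat Jnk1 livers but did not pass the test. Foxo1, whose product drives glucose production genes, had 13.4, 10.9 and 13.2 FPKM in high-fat Jnk1 livers, against 7.12, 7.31 and 10.2 FPKM in high-fat control livers (difference 0.56 ± 0.14, adjusted p = 0.091). Foxo3 had 9.45, 8.49 and 9.34 FPKM in high-fat Jnk1 livers, against 6.10, 6.66 and 6.08 FPKM in high-fat control livers (difference 0.47 ± 0.12, adjusted p = 0.0909). In both cases the libraries of the groups did not overlap, as for 18.7% of all loci. Without high fat control replicate 3 the Foxo1 difference was called (0.71, adjusted p = 0.0422). The remaining 7 genes differed from control by -0.16 to 0.27 in Jnk1 livers on high fat. On chow the remaining 9 differed by -0.36 for Irs2 to 0.48 for Pik3r1, with none called.

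The rise of Ide was set beside its chromosomal neighbours, because a duplication holding Ide and Fgfbp3 is known to segregate in C57BL/6J colonies. Within 500 kb of Ide the table held 16 loci, of which 9 were tested. Fgfbp3, a fibroblast growth factor carrier gene at chr19:36917550-36919599, fell under the filter, with 0.928, 0.717 and 1.04 FPKM in high-fat Jnk1 livers, against 0.324, 0.277 and 0.373 FPKM in high-fat control livers. On chow Fgfbp3 had 1.16, 0.552 and 0.508 FPKM in Jnk1 livers, against 0.370, 0.279 and 0.147 FPKM in control livers. All 6 Jnk1 libraries were above all 6 control libraries for Fgfbp3, with no test, since its mean was under 1 FPKM.

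The locus 4931408D14Rik, which ends short of Ide at chr19:37258426-37264095, was also called higher in Jnk1 livers. It had 13.4, 10.1 and 13.8 FPKM in high-fat Jnk1 livers, against 3.93, 4.64 and 5.97 FPKM in high-fat control livers (difference 1.2 ± 0.14, adjusted p = 0.000105), and it rose by 1.16 ± 0.14 on chow (adjusted p = 0.000121). Unlike Ide, it was also higher in high-fat Jnk1Jnk2 livers, by 1.01 ± 0.14 (adjusted p = 1.28e-05), and it had 10.2, 8.91 and 12.1 FPKM in high-fat Jnk2 livers. The other tested neighbours, Tnks2, Btaf1, Cpeb3, March5, Hhex, Exoc6 and Cyp26a1, were not called in Jnk1 livers on either diet, with differences of -0.35 (Hhex) to 0.36 (Btaf1) on high fat and -0.61 (Cyp26a1) to 0.14 (Cpeb3) on chow. Btaf1, Cpeb3, March5 and 4931408D14Rik lie between Fgfbp3 and Ide. Copy number was not measured here, and its part in the level of Ide was not tested.

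**Figure D2:**
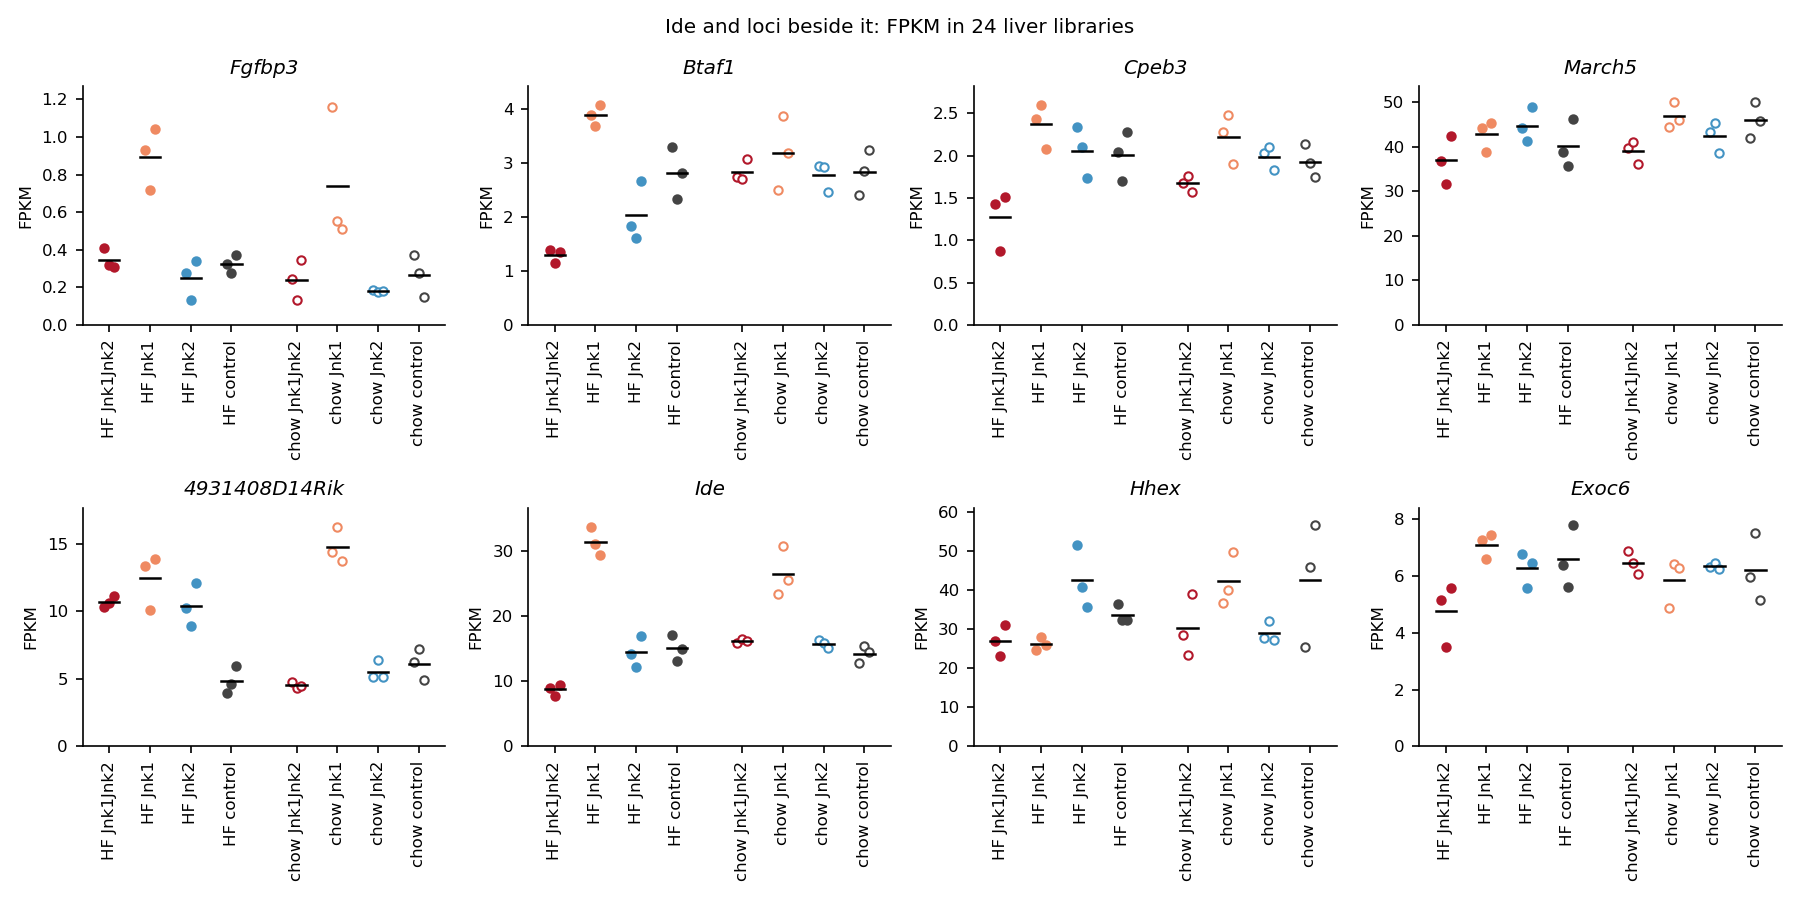
FPKM of Ide and 7 loci beside it in each of 24 libraries, in the order of their positions (points, filled for high fat, HF, and open for chow; lines are means of 3). Ide, Fgfbp3 and 4931408D14Rik are higher in Jnk1 than in control livers on both diets, whereas the other loci shown were not called between these groups.

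Loss of both kinases on high fat went with lower levels of most of the chain. In Jnk1Jnk2 livers 8 of the 10 genes were called lower than in control livers as deposited, where 31.6% of all tested loci were called lower, and none was called higher, where 19.6% were. The libraries of the 2 groups did not overlap for 7 of the 10 genes and for 52.4% of all loci. The receptor and the PI3K subunit differed most. Akt1 and Akt2 did not pass the test.

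Insr, at chr8:3150922-3279617 on the minus strand, had 7.26, 4.94 and 7.92 FPKM in high-fat Jnk1Jnk2 livers, against 21.2, 16.7 and 19.9 FPKM in high-fat control livers. The groups were far apart with a ratio of means of 0.348. Insr fell by 1.41 ± 0.15 (adjusted p = 1.05e-06). Pik3r1, whose products hold and stabilize the catalytic subunit, lies at chr13:101680762-101768217 on the minus strand. It had 4.97, 5.34 and 7.71 FPKM in high-fat Jnk1Jnk2 livers, against 20.1, 16.8 and 20.4 FPKM in high-fat control livers. Each Jnk1Jnk2 library was below each control library, and Pik3r1 fell by 1.54 ± 0.19 (adjusted p = 4.41e-06), with a ratio of means of 0.314.

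The adaptors link receptor to kinase, and both were called lower as deposited but not with the length trend removed, where the differences were -0.06 for Irs1 and -0.23 for Irs2. Irs1, at chr1:82233105-82291439 on the minus strand, had 1.03, 0.907 and 0.901 FPKM in high-fat Jnk1Jnk2 livers, against 2.68, 1.81 and 1.94 FPKM in high-fat control livers. Irs2, the adaptor that hepatocytes make more of in fasting, lies at chr8:10986964-11008430 on the minus strand and had 0.729, 0.444 and 0.5995 FPKM in high-fat Jnk1Jnk2 livers, against 1.77, 1.34 and 1.63 FPKM in high-fat control livers. Neither gene's groups overlapped. Irs1 fell by 0.68 ± 0.11 (adjusted p = 8.1e-05) and Irs2 by 0.70 ± 0.22 (adjusted p = 0.014), on a scale that understates changes of genes near 1 FPKM, since the ratios of means were 0.441 and 0.374. The length curve came from loci of all levels and may subtract too much for genes this low. The calls lost with the trend removed therefore cannot show whether these falls went with length. The Irs2 call was lost without high fat control replicate 1 (-0.65, adjusted p = 0.0505) and without high fat Jnk1Jnk2 replicate 2 (-0.63, adjusted p = 0.0554).

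The AKT kinase genes were not called. Akt1, at chr12:112653821-112674276 on the minus strand, had 17.6, 18.5 and 20.4 FPKM in high-fat Jnk1Jnk2 livers, against 17.2, 16.5 and 21.8 FPKM in high-fat control livers. Akt2, the AKT gene most used in insulin action on liver metabolism, lies at chr7:27591560-27639453 on the plus strand and had 24.7, 27.1 and 29.0 FPKM in high-fat Jnk1Jnk2 livers, against 24.7, 22.6 and 29.4 FPKM in high-fat control livers. The groups overlapped for both genes, with differences of 0.03 ± 0.12 for Akt1 (adjusted p = 0.854) and 0.08 ± 0.10 for Akt2 (adjusted p = 0.521).

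Downstream of AKT, Foxo1, at chr3:52268337-52350109 on the plus strand, had 4.32, 3.79 and 4.61 FPKM in high-fat Jnk1Jnk2 livers, against 7.12, 7.31 and 10.2 FPKM in high-fat control livers. Foxo3, at chr10:42185786-42276742 on the minus strand, had 3.82, 3.44 and 3.66 FPKM in high-fat Jnk1Jnk2 livers, against 6.10, 6.66 and 6.08 FPKM in high-fat control livers. The groups were separate for both, and Foxo1 fell by 0.80 ± 0.14 (adjusted p = 0.000163) and Foxo3 by 0.65 ± 0.12 (adjusted p = 0.000199). Among the genes that end insulin action, Ide had 9.03, 7.81 and 9.48 FPKM in high-fat Jnk1Jnk2 livers and fell by 0.71 ± 0.12 (adjusted p = 6e-05). Ptpn1, which encodes PTP1B, the phosphatase that removes phosphate from the receptor, lies at chr2:167932327-167979385 on the plus strand and had 5.00, 5.45 and 4.99 FPKM in high-fat Jnk1Jnk2 livers, against 6.87, 5.42 and 7.6 FPKM in high-fat control livers. Its groups overlapped, and its fall of 0.30 ± 0.12 (adjusted p = 0.0431) was lost in 5 of 6 fits that left out a library, all but the one without high fat control replicate 2, with adjusted p of 0.0568 to 0.197.

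Transcript length moved with these differences. Over all loci the median difference between high-fat Jnk1Jnk2 and control livers was 0.47 in the shortest 10% of transcripts and -0.57 in the longest 10%, which begin at 6520 bases. Insr, Irs1, Foxo1, Pik3r1 and Foxo3 belong to that longest class. The median over the 10 genes was -0.69 as deposited, against -0.07 over all tested loci, and -0.17 with the length trend removed. Insr and Pik3r1 lay below the 10th percentile of the longest class, which was -1.05. With the trend removed 3 of the 10 genes were called lower, where 18.6% of loci were. These were Insr, lower by 0.78 (adjusted p = 2.02e-05), Pik3r1, by 1.02 (adjusted p = 0.000471), and Ide, by 0.37 (adjusted p = 0.00435). Akt2 was then called higher, by 0.37 (adjusted p = 0.00233), where 18.2% of loci were. Irs1, Irs2, Foxo1, Foxo3 and Ptpn1 were not called with the trend removed, with differences of -0.23 (Irs2) to -0.05 (Ptpn1) and adjusted p of 0.291 or more. In bulk liver, fewer hepatocytes and less RNA per hepatocyte cannot be told apart.

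**Figure D3:**
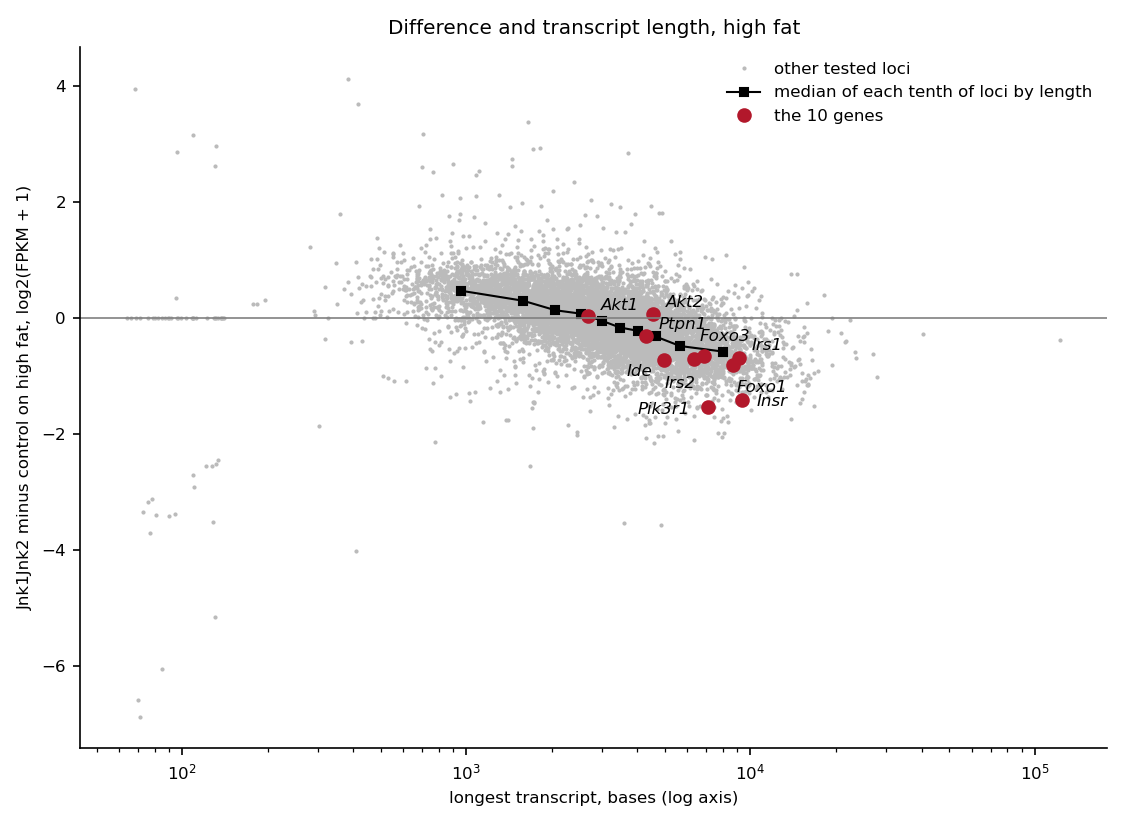
Difference between high-fat Jnk1Jnk2 and control livers, in log2(FPKM + 1), against the length of the longest transcript (log axis) for tested loci, with the median of each of 10 equal classes of loci by length (squares). Among the 10 genes (red), Insr and Pik3r1 lie below the 10th percentile of the longest class, and Akt2 (0.08) lies above the median of its class (-0.32).

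On chow none of the 10 genes was called in Jnk1Jnk2 livers, where 0.161% of tested loci were called. Insr had 16.7, 18.5 and 18.1 FPKM in chow Jnk1Jnk2 livers, against 17.1, 16.5 and 17.1 FPKM in chow control livers, and the ranges overlapped. Pik3r1 had 7.05, 7.89 and 10.6 FPKM in chow Jnk1Jnk2 livers, against 7.28, 7.44 and 9.24 FPKM in chow control livers, and overlapped too. The groups did not overlap for 4 of the 10 genes, with Irs2, Akt1 and Akt2 lower and Ide higher in Jnk1Jnk2 livers, and for 24.2% of all loci. The differences of the 10 genes ran from -0.37 for Akt1 (adjusted p = 0.22) to 0.18 for Ide (adjusted p = 0.557). Of the 10 genes 3 had an unadjusted p under 0.05 by limma, as did 1334 of the 10562 tested loci. With array weights Akt1 alone was called, by -0.41 (adjusted p = 0.0258).

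Loss of Jnk2 alone on high fat lowered the receptor gene. Insr had 10.9, 10.6 and 15.0 FPKM in high-fat Jnk2 livers, against 21.2, 16.7 and 19.9 FPKM in high-fat control livers. The groups did not overlap, as for 26.4% of all loci. Insr fell by 0.64 ± 0.15 (adjusted p = 0.00843), and it was the 1 gene of 10 called lower, where 4.96% of tested loci were. Pik3r1 had 15.3, 13.0 and 9.96 FPKM in high-fat Jnk2 livers, against 20.1, 16.8 and 20.4 FPKM in high-fat control livers (difference -0.56 ± 0.19, adjusted p = 0.0569). Those groups also did not overlap, and without high fat Jnk2 replicate 1 Pik3r1 was called (-0.70, adjusted p = 0.0417). The Insr call held with the length trend removed (-0.43, adjusted p = 0.00982) and was lost when only the groups compared were fitted (adjusted p = 0.111). On chow none of the 10 genes was called in Jnk2 livers, where 0.454% of tested loci were, and their differences ran from -0.47 for Irs2 to 0.42 for Pik3r1. At an unadjusted p under 0.05 by limma there were 3 (Irs2, Pik3r1 and Akt1), and 1390 of the 10562 tested loci. With array weights Akt1 was called lower, by 0.35 (adjusted p = 0.0483).

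**Figure D4:**
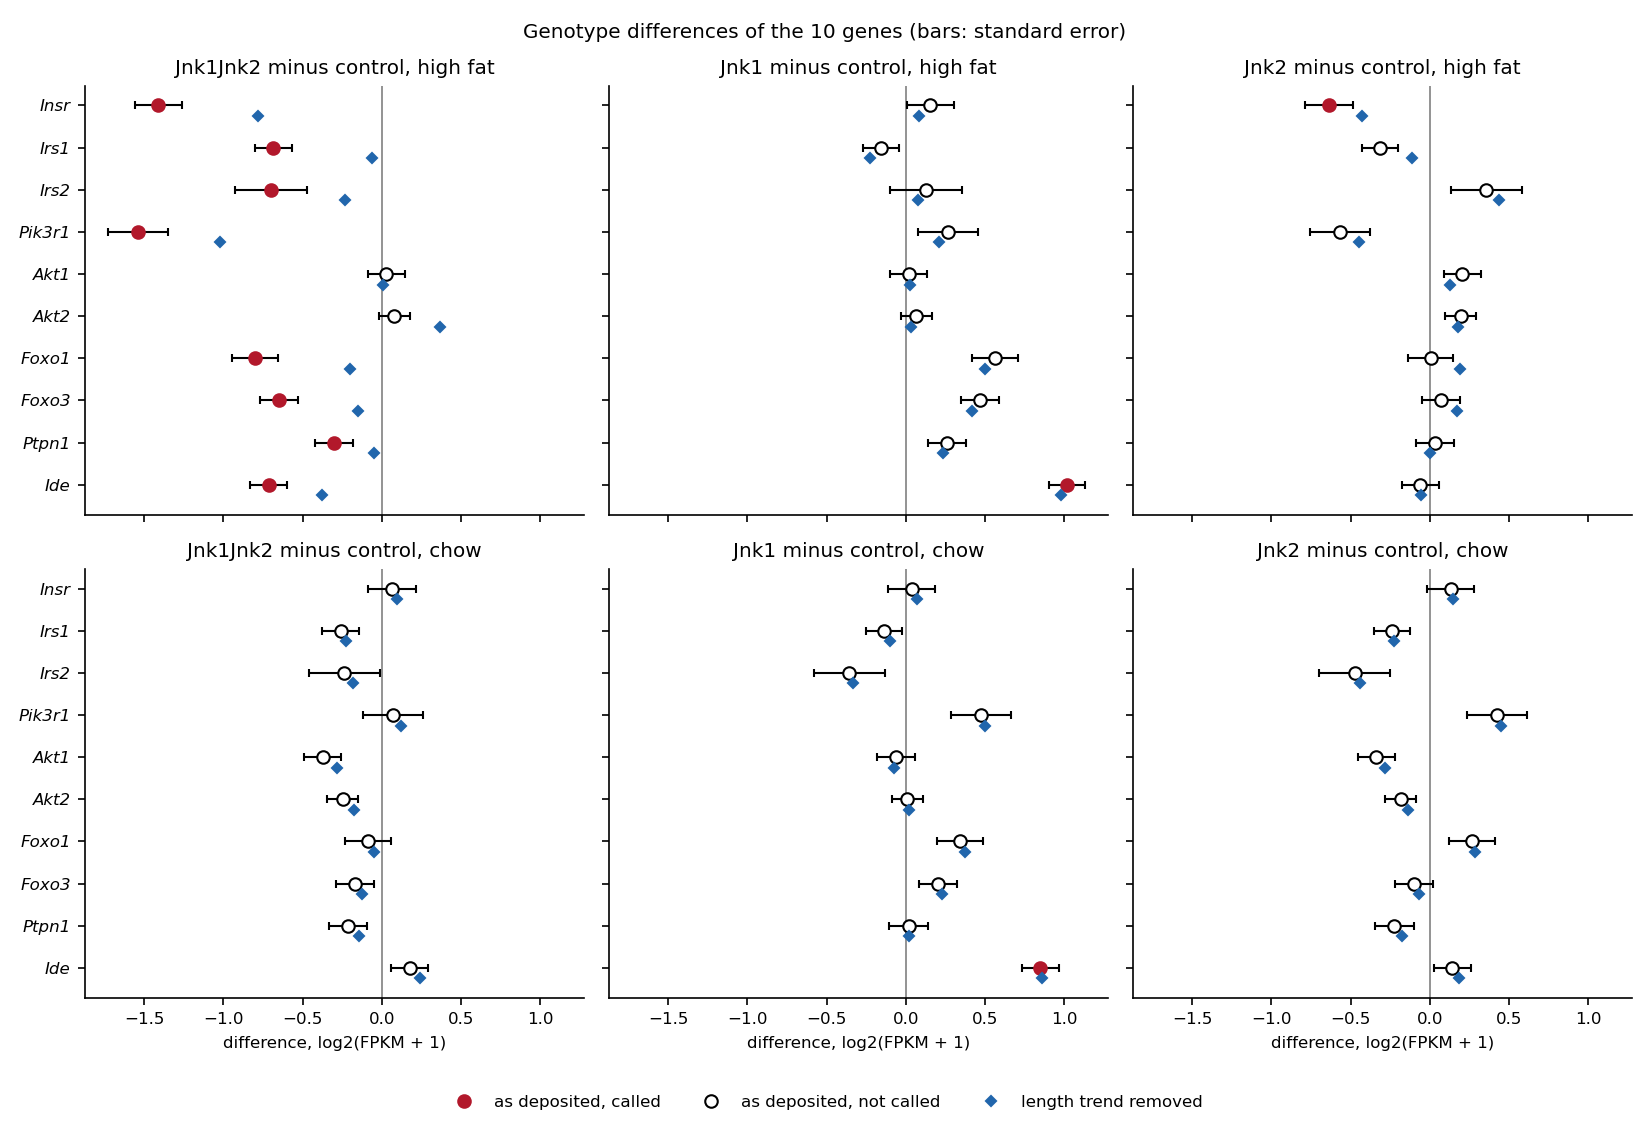
Difference from control of each gene, in log2(FPKM + 1) with its standard error, for Jnk1Jnk2, Jnk1 and Jnk2 livers on high fat (top) and chow (bottom); red points passed the test and diamonds show the difference with the length trend removed. Of 8 genes called in high-fat Jnk1Jnk2 livers, Insr, Pik3r1 and Ide were also called with the trend removed, and Ide is the called gene in Jnk1 livers.

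The high-fat Jnk2 libraries differed among themselves in genes that respond to insulin. Irs2 had 1.45, 1.69 and 4.43 FPKM in high-fat Jnk2 livers, so replicate 3 was above the other two and above the 3 chow Jnk2 libraries, at 3.29, 3.05 and 1.65 FPKM. In the same replicate 3, Igfbp1, a gene that FOXO1 raises in fasting, had 140 FPKM, against 16.9 and 32.9 in the other two. Igfbp1 was picked here after its values were seen, and what set this library apart was not tested.

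The diet itself moved the PI3K subunit and 1 adaptor in control livers. Pik3r1 had 20.1, 16.8 and 20.4 FPKM in high-fat control livers, against 7.28, 7.44 and 9.24 FPKM in chow control livers, a ratio of means of 2.39. Irs2 had 1.77, 1.34 and 1.63 FPKM in high-fat control livers, against 4.11, 3.95 and 3.85 FPKM in chow control livers. Neither gene's diets overlapped, as for 34.6% of all loci. On the log2 scale Pik3r1 rose by 1.17 ± 0.19 (adjusted p = 0.000463) and Irs2 fell by 0.95 ± 0.22 (adjusted p = 0.00756). Among tested loci 10.1% were called higher and 6.19% lower on high fat in control livers. The other 8 genes were not called, with differences of -0.26 for Akt1 (adjusted p = 0.139) to 0.17 for Insr. Akt1 was called lower in 4 of 9 alternative settings, by up to 0.34, and without high fat control replicate 3 (-0.38), and Foxo3 was without chow control replicate 2 (-0.35).

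In Jnk1 livers the diet acted on Pik3r1 in the same direction. It had 26.8, 23.8 and 19.4 FPKM in high-fat Jnk1 livers, against 8.42, 11.8 and 14.9 FPKM in chow Jnk1 livers, and rose by 0.96 ± 0.19 (adjusted p = 0.00224). It was the 1 gene of 10 called higher, where 9.22% of loci were. Irs2 had 1.69, 1.44 and 2.40 FPKM in high-fat Jnk1 livers, against 3.46, 2.76 and 2.48 FPKM in chow Jnk1 livers (difference -0.46 ± 0.22, adjusted p = 0.175). With the length trend removed Irs1 (-0.38, adjusted p = 0.0081) and Irs2 (-0.57, adjusted p = 0.0498) were also called lower, and without chow Jnk1 replicate 3 Foxo1 was called higher (0.48, adjusted p = 0.0327).

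In Jnk2 livers the diet lowered Insr and raised Akt2. Insr had 10.9, 10.6 and 15.0 FPKM in high-fat Jnk2 livers, against 19.9, 17.9 and 18.2 FPKM in chow Jnk2 livers. Akt2 had 30.9, 28.0 and 28.9 FPKM in high-fat Jnk2 livers, against 24.2, 21.9 and 20.5 FPKM in chow Jnk2 livers. Both genes' diets were apart, as for 39.8% of all loci. Insr fell by 0.595 ± 0.149 (adjusted p = 0.0067), where 6.39% of loci were called lower, and Akt2 rose by 0.38 ± 0.10 (adjusted p = 0.00763), where 19.7% were called higher. Without high fat Jnk2 replicate 3, Irs1 (-0.36, adjusted p = 0.0389) and Irs2 (-0.48, adjusted p = 0.0493) were called lower as well. Pik3r1 had 15.3, 13.0 and 9.96 FPKM in high-fat Jnk2 livers, against 11.1, 10.7 and 11.2 FPKM in chow Jnk2 livers (difference 0.18 ± 0.19, adjusted p = 0.529).

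In Jnk1Jnk2 livers the diet lowered 6 of the 10 genes, where 26.8% of loci were called lower, and raised Akt2, where 30.1% were called higher. Irs2 had 0.729, 0.444 and 0.5995 FPKM in high-fat Jnk1Jnk2 livers, against 3.31, 3.61 and 2.78 FPKM in chow Jnk1Jnk2 livers, and fell by 1.41 ± 0.22 (adjusted p = 4.42e-05). Insr fell by 1.30 ± 0.15 (adjusted p = 2.27e-06), Ide by 0.82 ± 0.12, Foxo3 by 0.67 ± 0.12, Irs1 by 0.65 ± 0.11 and Foxo1 by 0.62 ± 0.14, and Akt2 rose by 0.33 ± 0.10 (adjusted p = 0.0077). With the length trend removed Irs2 (-1.03), Insr (-0.73) and Ide (-0.58) were called lower, where 23.0% of loci were, and Akt2 (0.51) was called higher, where 20.5% were. The Akt2 call was lost under quantile normalization (0.12, adjusted p = 0.188). Pik3r1, which rose with high fat in control livers, had 4.97, 5.34 and 7.71 FPKM in high-fat Jnk1Jnk2 livers, against 7.05, 7.89 and 10.6 FPKM in chow Jnk1Jnk2 livers (difference -0.45 ± 0.19, adjusted p = 0.0513). It was called without chow Jnk1Jnk2 replicate 1 (-0.56) and without high fat Jnk1Jnk2 replicate 3 (-0.61). These libraries are also those of the comparison with control on high fat, so the 2 comparisons are not independent.

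**Figure D5:**
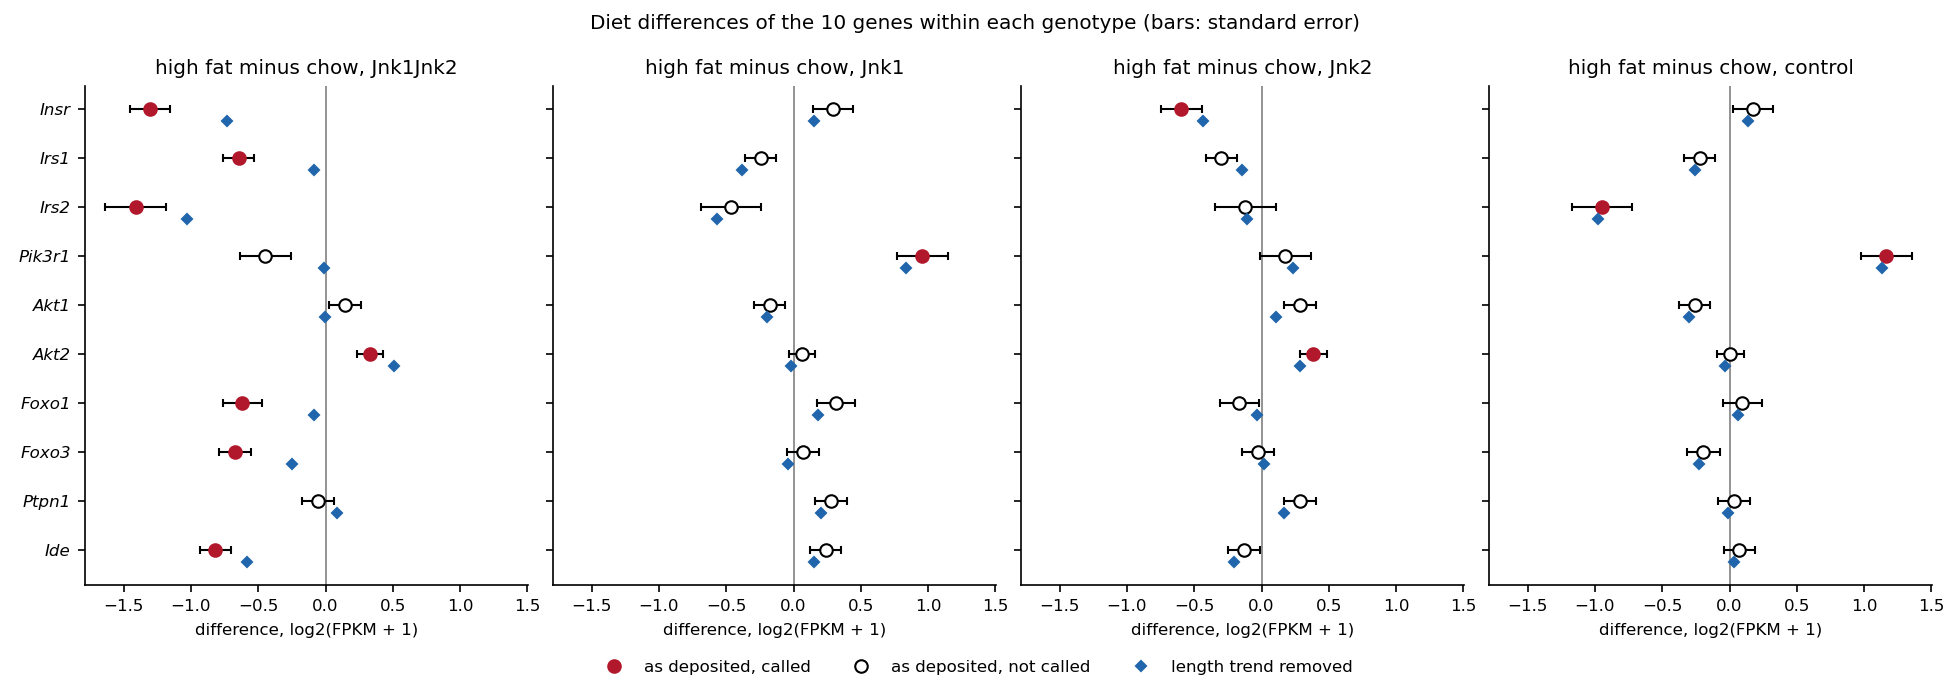
High fat minus chow for each gene within each genotype, in log2(FPKM + 1) with its standard error; red points passed the test and diamonds show the difference with the length trend removed. Pik3r1 is higher on high fat in Jnk1 (0.96) and control livers (1.17) and not in Jnk2 (0.18) or Jnk1Jnk2 livers (-0.45).

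Whether the genotype effect differed between diets was tested as an interaction. For Jnk1Jnk2 it was called lower for 6 of the 10 genes, where 19.1% of loci were. Pik3r1 had an interaction of -1.61 ± 0.27 (adjusted p = 0.000293), Insr of -1.48 ± 0.21 (adjusted p = 0.000117), Ide of -0.89 ± 0.16, Foxo1 of -0.71 ± 0.20, Foxo3 of -0.48 ± 0.17 and Irs1 of -0.42 ± 0.16 (adjusted p = 0.0486). With the length trend removed 3 were called lower, where 11.4% of loci were, namely Pik3r1 (-1.14), Insr (-0.88) and Ide (-0.62), and Akt2 was called higher (0.54), where 11.5% were. The Irs1 value then had the other sign, at 0.17 (adjusted p = 0.381). Foxo3 lost its call in 7 of 12 fits that left out a library, those without chow control replicate 2, chow Jnk1Jnk2 replicate 1 or 2, high fat control replicate 1 or 2 or high fat Jnk1Jnk2 replicate 2 or 3, with values of -0.50 to -0.32. Irs1 lost it in 6 of 12, those without chow control replicate 2, chow Jnk1Jnk2 replicate 2 or 3, high fat control replicate 1 or high fat Jnk1Jnk2 replicate 2 or 3, with values of -0.45 to -0.31. Akt1 (0.52) and Akt2 (0.43) were called higher without high fat control replicate 3, and Akt2 (0.38) without high fat Jnk1Jnk2 replicate 1.

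For Jnk2 the interaction was -0.99 ± 0.27 for Pik3r1 (adjusted p = 0.0272) and -0.77 ± 0.21 for Insr (adjusted p = 0.0287), where 3.33% of loci were called lower, and 0.54 ± 0.17 for Akt1 (adjusted p = 0.0447), where 6.18% were called higher. These calls sat close to the threshold. With the length trend removed Akt1 was not called (0.41, adjusted p = 0.062), and without the filter on low values none of the 3 was. Leaving out single libraries ended the call in 5 of 12 fits for Pik3r1, in 7 for Insr and in 9 for Akt1, with adjusted p of up to 0.0622, 0.0667 and 0.128. For Pik3r1 these were the fits without chow control replicate 1 or 2, chow Jnk2 replicate 3, high fat control replicate 1 or high fat Jnk2 replicate 3, with values of -0.98 to -0.83. For Insr they were the fits without chow control replicate 2 or 3, chow Jnk2 replicate 1 or 3, high fat control replicate 1 or high fat Jnk2 replicate 1 or 2, with values of -0.78 to -0.68, and Akt1 kept its call without chow Jnk2 replicate 2, high fat control replicate 3 or high fat Jnk2 replicate 1. Akt2 (0.48) was called without high fat control replicate 3 and Irs2 (1.04) without high fat Jnk2 replicate 1. For Jnk1 none of the 10 genes was called, and 0% of tested loci were, with 545 loci and none of the 10 genes at an unadjusted p under 0.05 by limma.

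The effect of losing both kinases was also set against the sum of the effects of losing each. On high fat 7 of the 10 genes were lower in Jnk1Jnk2 livers than that sum, where 24.4% of loci were called lower. Ide departed by -1.67 ± 0.16 (adjusted p = 3.07e-05), Foxo1 by -1.37 ± 0.20, Pik3r1 by -1.24 ± 0.27, Foxo3 by -1.19 ± 0.17, Irs2 by -1.18 ± 0.32, Insr by -0.93 ± 0.21 and Ptpn1 by -0.60 ± 0.17 (adjusted p = 0.0113). With the length trend removed 5 were called, where 11.2% of loci were, and Irs2 (-0.74, adjusted p = 0.0631) and Ptpn1 (-0.29, adjusted p = 0.185) were not. On chow Ide was the 1 gene called, by -0.81 ± 0.16 (adjusted p = 0.0138), where 0.833% of loci were called lower, and without chow Jnk1 replicate 1 Foxo1 was called too (-0.88). On chow Ide had 15.9, 16.5 and 16.2 FPKM in Jnk1Jnk2 livers, 23.4, 30.8 and 25.6 FPKM in Jnk1 livers, 16.4, 16.0 and 15.1 FPKM in Jnk2 livers and 12.8, 15.4 and 14.6 FPKM in control livers.

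Other genes of the pathway were counted from lists chosen with earlier results of these data known, which include the 10 genes. In high-fat Jnk1Jnk2 against control livers, 9 of 13 tested receptor, adaptor and PI3K genes were called lower and none higher, and 4 were lower and 1 higher with the length trend removed. The shares over all loci were 31.6% lower and 19.6% higher as deposited, and 18.6% and 18.2% with the trend removed. Of 21 tested genes of AKT and its outputs 9 were called lower and 4 higher, and 2 lower and 6 higher with the trend removed. Of 16 tested negative regulators 7 were lower and 3 higher, and 3 lower and 3 higher with the trend removed. Among those lower in both was Ptprf, a receptor tyrosine phosphatase gene, with 7.84, 7.30 and 9.77 FPKM in Jnk1Jnk2 livers, against 25.7, 20.4 and 24.7 FPKM in control livers. Ptprf fell by 1.40 ± 0.12 (adjusted p = 2.5e-07), and by 0.86 with the trend removed. Both genes of insulin clearance were lower, Ide and Ceacam1, whose product carries insulin into hepatocytes. Ceacam1 had 14.6, 12.0 and 12.4 FPKM in high-fat Jnk1Jnk2 livers, against 27.6, 23.1 and 25.8 FPKM in high-fat control livers, and fell by 0.92 (adjusted p = 1.03e-05), or by 0.77 with the trend removed.

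Most tested genes of the list of insulin-induced genes were lower. Of these 7 genes 6 were called lower in high-fat Jnk1Jnk2 against control livers and none higher, where 31.6% of all loci were called lower. Their median was -1.58, against -0.07 over all loci. With the trend removed 5 were lower, where 18.6% of all loci were. Scd1, a desaturase gene of fat synthesis, had 20.3, 52.0 and 122 FPKM in Jnk1Jnk2 livers, against 964, 398 and 597 FPKM in control livers. Srebf1, the master regulator gene of fat synthesis, had 6.6, 8.61 and 9.92 FPKM in Jnk1Jnk2 livers, against 25.9, 24.0 and 39.6 FPKM in control livers. Neither gene's groups overlapped, and Scd1 fell by 3.56 ± 0.73 (adjusted p = 0.000505), Srebf1 by 1.70 ± 0.30 (adjusted p = 0.000151) and Fasn, the fatty acid synthase gene, by 1.58 ± 0.18 (adjusted p = 1.6e-06).

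Of 13 tested FOXO1-activated genes 4 were called lower and 1 higher in the same comparison, close to the 31.6% of all loci called lower, and 2 lower and none higher with the trend removed. The genes of glucose output were not called. G6pc, glucose-6-phosphatase, differed by 0.14 (adjusted p = 0.627) and Pck1, phosphoenolpyruvate carboxykinase, by -0.09 (adjusted p = 0.781). Igfbp1 had 53.1, 56.1 and 32.6 FPKM in Jnk1Jnk2 livers, against 14.9, 18.1 and 31.9 FPKM in control livers, and was not called either (1.125 ± 0.54, adjusted p = 0.0884). Grb14 (-0.08) and Socs3 (0.04), which inhibit the receptor, were not called, and Igf1r, the related growth factor receptor gene, was too low to be tested, with 0.0795 to 0.203 FPKM in high-fat Jnk1Jnk2 livers and 0.168 to 0.31 FPKM in high-fat control livers.

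The same lists describe the response to diet in control livers. On high fat 3 of 7 insulin-induced genes were called higher and none lower, where 10.1% of all loci were called higher. Of 13 FOXO1-activated genes 5 were called lower and none higher, where 6.19% of all loci were called lower. With the length trend removed 3 of the 7 were higher and 7 of the 13 lower. Srebf1 rose by 1.67 ± 0.30 (adjusted p = 0.0011), whereas Igfbp1 fell by 2.51 ± 0.54 (adjusted p = 0.00396), G6pc by 1.39 ± 0.23, Socs2, a cytokine signalling suppressor gene, by 1.36 ± 0.29 and Pdk4, a pyruvate dehydrogenase kinase gene, by 1.33 ± 0.45 (adjusted p = 0.0469). In Jnk1Jnk2 livers none of the 7 insulin-induced genes was higher on high fat and 4 were lower. Of all loci 30.1% were called higher and 26.8% lower. With the trend removed 3 of the 7 were lower, where 23.0% of loci were. For Jnk1Jnk2 the interaction with diet was called lower for 6 of these 7 genes, where 19.1% of loci were. With the trend removed it was called lower for 4, where 11.4% of loci were. The genes of largest diet effect there, beside Irs2 and Insr, were Scd1, lower by 2.39 ± 0.73, Fasn, Sos1, which encodes the exchange factor that links the receptor to RAS, and Acaca, the acetyl-CoA carboxylase gene, lower by 1.17 to 1.41. In Jnk1 livers 5 of 7 insulin-induced genes were higher on high fat and none lower, among them Srebf1 (1.73 ± 0.30) and Pklr, the liver pyruvate kinase gene (0.91 ± 0.27), while Socs2 (-1.15) and Gys2, the liver glycogen synthase gene (-0.99), were lower. The number of the 7 that were higher in Jnk1 livers was also 5 with the trend removed. As deposited 9.22% of all loci were called higher in Jnk1 livers. In Jnk2 livers 2 of 7 were higher, among them Srebf1 (0.89 ± 0.30), and 2 were lower, among them Fasn (-0.78). Of all loci 19.7% were called higher and 6.39% lower in Jnk2 livers. With the trend removed none of the 7 was higher and 2 were lower. Pck1 (-1.17), G6pc (-0.88) and Ppargc1a, a coactivator gene of glucose production (-0.64), were lower there too.

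In the single losses fewer genes of the lists were called. In Jnk1 livers the called genes of these lists were Ide on both diets and Gys2, which rose by 0.98 ± 0.24 on chow (adjusted p = 0.0352). In high-fat Jnk2 livers 2 of 7 insulin-induced genes were called lower, Fasn by 1.02 ± 0.18 (adjusted p = 0.000899) and Acaca by 0.76 ± 0.12. Of all loci 4.96% were called lower in high-fat Jnk2 livers. Gys2 rose there by 1.00 ± 0.24 and Gsk3a, a kinase gene that acts on glycogen synthase, by 0.50 ± 0.10, and Ptprf fell by 0.48 ± 0.12. No gene of these lists was called in Jnk1Jnk2 or Jnk2 livers on chow.

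Patterns across the 24 libraries are given as Pearson's r of log2(FPKM + 1), a description in which libraries share groups, depth and the length trend. Among the 10 genes Foxo1 and Ide had the highest r, 0.85 (0.68 with the trend removed), and Foxo3 and Ide had 0.84 (0.73). Insr and Irs1 had 0.79 as deposited and 0.07 with the trend removed, whereas Insr and Akt2 had -0.34 and -0.80. The loci most like Insr were Trip12, Abcc2, Atl3, Ash1l and Kidins220 (0.974 to 0.979), and with the trend removed Abcc2, C3, Mfsd4, F5 and Dsg2 (0.933 to 0.957). Those most like Pik3r1 were Xdh, Hlf, Slc26a1, Pls3 and Uroc1 (0.924 to 0.95), and with the trend removed Acsm3, Xdh, Gda, Hlf and Ildr2 (0.896 to 0.925). Ide was nearest to Polr2b, Rasal2, Baz1b and Nolc1 (0.868 to 0.888), and with the trend removed to Cpped1, Polr2b, Btaf1 and Akap13 (0.839 to 0.843). Irs2 was nearest to Zfp281, Heca, Ranbp10, Setd1b and Als2cl (0.911 to 0.922), and with the trend removed to Tmem30b, Klhdc10, Cyp4f17, Heca and Mtap7 (0.872 to 0.909). For the other 6 genes the highest r was 0.85 (Ptpn1) to 0.931 (Foxo1) as deposited and 0.732 (Ptpn1) to 0.932 (Akt2) with the trend removed.

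Marker lists of other cells were set beside these results, in high-fat Jnk1Jnk2 and control livers. The summed level of macrophage markers was 327 to 471 FPKM in Jnk1Jnk2 livers, against 233 to 268 FPKM in control livers. Of 10 tested 5 were called higher and none lower, where 19.6% of all loci were called higher. With the length trend removed 2 of the 10 were called higher, where 18.2% of all loci were. Endothelial markers summed to 84.5 to 99.7 FPKM in Jnk1Jnk2 livers, against 68.7 to 73.2 FPKM in control livers. That sum was mostly Clec4g, a sinusoidal lectin gene, with 51.0, 57.0 and 64.3 FPKM in Jnk1Jnk2 livers, against 27.5, 36.3 and 34.2 FPKM in control livers. It was the 1 of 8 endothelial markers called higher as deposited, while 3 (Stab2, Kdr and Cdh5) were called lower. With the length trend removed 2 of the 8 were called higher and none lower. Cholangiocyte markers summed to 35.2 to 62.9 FPKM in Jnk1Jnk2 livers, against 18.2 to 25.4 FPKM in control livers, nearly all of it Spp1, a gene that other cells also express, at 32.6 to 60.3 FPKM in Jnk1Jnk2 livers and 16.2 to 22.8 FPKM in control livers. Sox9, the other tested cholangiocyte marker, was not called (-0.17), and Krt19, Krt7, Epcam and Cftr were under the filter. None of 8 stellate cell markers was called as deposited, and 5 were called higher with the length trend removed. They summed to 20.9 to 65.8 FPKM in Jnk1Jnk2 livers, against 19.9 to 29.7 FPKM in control livers. The highest of these sums was that of high fat Jnk1Jnk2 replicate 3, where Des, the desmin gene of muscle and stellate cells, had 32.9 FPKM, against 1.60 and 3.39 in the other two. Skeletal muscle genes were high in the same replicate 3, with Acta1 at 213 FPKM and Ckm at 61.3 FPKM, against 0.321 FPKM or less in the other two and listed at 0 in high-fat control livers. Without it 7 of the 8 genes called lower in high-fat Jnk1Jnk2 livers were still called, all but Ptpn1. Lymphocyte markers summed to 5.02 to 6.07 FPKM in Jnk1Jnk2 livers, against 3.59 to 4.49 FPKM in control livers, and adipocyte markers overlapped, at 2.73 to 11.95 FPKM in Jnk1Jnk2 livers and 8.40 to 20.96 FPKM in control livers. The pancreas genes Prss1 and Amy2a5 were listed at 0 in all 24 libraries. Of the other pancreas genes in the list, Cela1 had 4.205 to 147 FPKM over the 24 libraries. Ins1 and Ins2 were each at 0 in 21 libraries and reached 3.81 and 40.2 FPKM. Hepatocyte markers summed to 42400 to 49250 FPKM in Jnk1Jnk2 livers, against 34900 to 42570 FPKM in control livers. That sum holds Alb, at 15240 FPKM or more where not listed at 0, and Serpina1a, listed at 0 in 7 of 24 libraries. Of 9 tested hepatocyte marker loci 3 were called higher and 2 lower, where 19.6% and 31.6% of all loci were. With the length trend removed 1 was higher and 2 lower, where 18.2% and 18.6% were. Hnf4a had 73.9, 61.9 and 75.2 FPKM in Jnk1Jnk2 livers, against 119, 106 and 154 FPKM in control livers. In high-fat Jnk2 livers endothelial markers summed to 105 to 108 FPKM and 7 of 8 were called higher, as were 4 of 8 stellate markers, where 7.45% of all loci were called higher. The part of these cell types in the levels of the 10 genes was not tested.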

How the data were processed

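Total RNA of 24 mouse liver samples was isolated with the RNeasy kit, with RIN above 9, per the labels' protocols. The authors' deposited values are FPKM per locus and library, made with TopHat, Cufflinks and Cuffdiff on mm10, per the submitters' processing notes; versions are not given in the sources used here. FPKM hold no read counts, so the depth in reads is unknown. Relative depth was estimated from 1169 loci that had values in only part of the libraries. It ran from 0.302 in high fat Jnk1Jnk2 replicate 3 to 1.0 in chow control replicate 1. High fat Jnk1Jnk2 replicates 1 and 2 had 0.627 and 0.727. Start positions were found to count from 0 and are printed counting from 1.

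Members and lists were chosen with earlier results of these data known. Of 31027 loci, 10562 averaged 1 FPKM or more and were tested with limma 3.58.1 (R 4.3.3, trend on) on log2(FPKM + 1), in 1 fit of 24 libraries with 8 group means and 16 residual degrees of freedom. A fold change on this scale understates the change of low genes. Benjamini-Hochberg adjustment ran over all tested loci within each of 15 contrasts, and a locus was called at an adjusted p under 0.05. All 10 genes were tested in every comparison, but the text does not name each of them in each comparison. From the wider lists up to 6 called genes of largest change are named, beside Igfbp1, G6pc, Pck1, Srebf1, Igf1r, Ceacam1, Grb14 and Socs3 in high-fat Jnk1Jnk2 livers. Some genes that this rule or the likeness ranking names are not reported here.

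To remove the length trend, the loess curve (span 0.5) of each library's deviation on log2 length of the longest GENCODE vM21 transcript was subtracted, for the 10194 loci (96.5%) with a length. The curve took no account of level, so it may subtract too much for low genes such as Irs1 and Irs2. Alternatives were a pseudocount of 0.1, no filter, a mean of at least 5 FPKM, size factors, quantile normalization, a block for replicate number, array weights, separate fits of the groups in each contrast, and leaving out each library in turn. The fit was tested on simulated data before use. Figures were drawn with matplotlib 3.10.9 in Python 3.11.15.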

Additional observations from a re-analysis of the deposited data

Results flagged for a closer look

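Each of these values is a test of a difference between effects, in log2(FPKM + 1), that passed an adjusted p under 0.05 by limma. No explanation of them was tested.

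The Jnk1Jnk2 effect differed between high fat and chow by -1.61 for Pik3r1, -1.48 for Insr, -0.89 for Ide, -0.71 for Foxo1, -0.48 for Foxo3 and -0.42 for Irs1, with the lower value on high fat. The Jnk2 effect differed between the diets by -0.99 for Pik3r1, -0.77 for Insr and 0.54 for Akt1.

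On high fat the effect of losing both kinases differed from the sum of the single losses by -1.67 for Ide, -1.37 for Foxo1, -1.24 for Pik3r1, -1.19 for Foxo3, -1.18 for Irs2, -0.93 for Insr and -0.60 for Ptpn1. On chow it differed by -0.81 for Ide. The test on Ide uses the Jnk1 libraries in which Ide and the nearby Fgfbp3 were high.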

How the results depend on the processing

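Of 2520 values of the 10 genes under alternatives, 2394 kept their side of the threshold, 75 lost a call, 50 gained one and 1 changed sign in a called result. The change of sign was in the interaction of diet with Jnk1Jnk2 for Irs1, which was 0.17 with the length trend removed. Changes of sign where neither value was called were not counted. Unless a cause follows from an alternative's construction, the cause was not tested.

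The number of the 10 genes called changed as follows, with changes of up to 1.5 times given for the length trend and the block only. With the length trend removed it was 4, against 8, in high-fat Jnk1Jnk2 livers, 4, against 7, for diet in Jnk1Jnk2 livers, and 3, against 1, for diet in Jnk1 livers, 3, against 2, for diet in control livers (Akt1 added), 2, against 3, for the interaction with Jnk2 (Akt1 lost), 4, against 6, for that with Jnk1Jnk2 and 5, against 7, for non-additivity on high fat. With array weights it was 1, against 0, for Jnk1Jnk2 on chow and for Jnk2 on chow, 3, against 1, for Jnk1 on high fat, 4, against 1, for Jnk2 on high fat, 2, against 1, for diet in Jnk1 livers, 4, against 2, for diet in Jnk2 livers, and 2, against 1, for non-additivity on chow. A fit of only the groups compared gave 0, against 1, for Jnk1 on either diet and for Jnk2 on high fat. Quantile normalization gave 3, against 1, for Jnk2 on high fat and 2, against 1, for diet in Jnk1 livers, and size factors gave 2 for Jnk2 on high fat. A mean of at least 5 FPKM gave 1, against 2, for diet in control livers, where Irs2 was no longer tested, and no filter gave 0, against 3, for the interaction with Jnk2.

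Leaving out 1 library at a time gave 1 to 2 calls for Jnk1 on high fat (2 without high fat control replicate 3), 1 to 2 for Jnk2 on high fat (2 without high fat Jnk2 replicate 1), 1 to 2 for diet in Jnk1 livers (2 without chow Jnk1 replicate 3), 2 to 4 for diet in Jnk2 livers (4 without high fat Jnk2 replicate 3), 0 to 4 for the interaction with Jnk2 and 1 to 2 for non-additivity on chow (2 without chow Jnk1 replicate 1).

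Replicate numbers did not pair the libraries. Over 84 same-numbered pairs the correlation of deviations had a median of -0.022 (-0.26 to 0.329), and 4 of 24 libraries correlated best with their own number. With the replicate block 5 genes, against 6, were called for the interaction with Jnk1Jnk2 and 2, against 3, for that with Jnk2, and no other count of the 10 genes changed.

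Loci called ranged over the settings from 3509 to 5793 (5410 as reported) for Jnk1Jnk2, 6 to 716 (24) for Jnk1 and 126 to 2824 (1311) for Jnk2 on high fat, and from 7 to 447 (17), 56 to 342 (232) and 2 to 466 (48) for these on chow. For diet they ranged from 3898 to 6497 (6014) in Jnk1Jnk2, 945 to 2218 (1588) in Jnk1, 1662 to 4570 (2751) in Jnk2 and 1159 to 3067 (1717) in control livers. For the interactions they ranged from 2329 to 4843 (3689) for Jnk1Jnk2, 0 to 1 (0) for Jnk1 and 655 to 2375 (1005) for Jnk2, and for non-additivity from 2180 to 4024 (3904) on high fat and 104 to 423 (162) on chow.

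Size factors changed the share of calls that were higher to 49.7%, against 38.3%, for Jnk1Jnk2 on high fat, to 44%, 45.8% and 44.5%, against 61.3%, 75.5% and 61.9%, for diet in Jnk1, Jnk2 and control livers, to 48.6%, against 65%, for the interaction with Jnk2, and to 50.2%, against 33.9%, for non-additivity on high fat. They moved the median of all loci by 0.13 for diet in Jnk2 livers and by -0.12 for non-additivity on high fat. Depth in reads is unknown, so no counting error could be given, which bears most on the low levels of Irs1 and Irs2.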
